A study of Homo sapiens with 18 samples.

Results

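Aminoacyl-tRNA synthetases are the enzymes that join each amino acid to its transfer RNA, and 36 of the 35616 genes in the deposited expression table encode them here. The members were taken from a list of gene symbols, without a threshold on any measured value though with earlier results of these data known, and all 36 were found under the older symbols that the table uses (AARS for alanyl-tRNA synthetase). The 20 cytosolic members have symbols with no 2, and the 16 mitochondrial members have symbols ending in 2. All 36 were among the 12005 genes that were tested because 3 or more libraries held 1 scaled TPM or more.

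The cells were HUDEP-2, an established line of erythroid progenitors from umbilical cord, either carrying a knockout of the beta-globin gene HBB (HBBko) or without it (WT). Bulk RNA was sequenced at 3 stages, undifferentiated, 48 h and 5 d into differentiation, from 3 libraries per line and stage (18 libraries in 6 groups). The labels do not give the number of HBBko clones, nor whether the triplicates were started separately, so that the p-values measure only the spread between these libraries, which may be technical. In the table the columns of one line are headed thal and those of the other wen, and thal was read as HBBko from that name. Values are TPM, a length-corrected share of transcripts, per gene, scaled between libraries by the submitters, and are called scaled TPM below. The read depth is unknown.

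Cytosolic synthetases supply charged transfer RNAs to the cytosolic ribosomes, which in red cell precursors come to make mostly globin, whereas the mitochondrial enzymes are encoded in the nucleus and charge the transfer RNAs of the mitochondrial ribosomes. Most amino acids have a separate gene for each compartment. GARS and KARS each supply a glycyl- or lysyl-tRNA synthetase to both compartments, and mitochondria obtain glutaminyl-tRNA by an amidotransferase made of the products of GATB, GATC and QRSL1. When amino acids run short or eIF2alpha is phosphorylated, the transcription factor ATF4 activates amino acid synthesis and transport genes and many cytosolic synthetase genes, in part through a DNA element bound by ATF4 together with C/EBP proteins.

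This C/EBP-ATF element was looked for in RefSeq promoter windows (GRCh38.p14, 250 bases before to 50 bases after the gene's start) as TGATGNAA on both strands, with TGATGCAA as its core. Windows were found for 30 members, 16 cytosolic and 14 mitochondrial; DARS, LARS, VARS, YARS, AARS2 and VARS2 were not matched. The 30-base stretches below are all matches among the members, shown because all but 1 lie in cytosolic genes. Each is read along the gene's own strand, and capitals mark the 8 letters of the element, which are its reverse complement (TTGCATCA for the core) where the element lies on the other strand. Positions count from 1 at the first base of the gene and from -1 just before it.
AARS (chr16:70289675-70289704, minus strand, element at -187 to -180): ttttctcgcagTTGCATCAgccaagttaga
CARS (chr11:3057407-3057436, minus strand, element at -2 to 6): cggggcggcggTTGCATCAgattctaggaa
IARS (chr9:92293692-92293721, minus strand, element at -13 to -6): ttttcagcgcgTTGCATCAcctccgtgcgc
MARS (chr12:57488053-57488082, plus strand, element at -4 to 4): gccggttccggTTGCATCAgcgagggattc
NARS (chr18:57621804-57621833, minus strand, element at 15 to 22): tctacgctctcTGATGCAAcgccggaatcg
TARS (chr5:33440956-33440985, plus strand, element at 3 to 10): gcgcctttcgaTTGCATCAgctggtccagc
GARS (chr7:30594834-30594863, plus strand, element at -33 to -26): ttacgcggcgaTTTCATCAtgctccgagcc
YARS2 (chr12:32756076-32756105, minus strand, element at -197 to -190): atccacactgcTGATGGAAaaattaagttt

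Some genes have more than 1 window, and a gene was counted where any of its windows held the letters. The core TGATGCAA was present for 6 of 16 matched cytosolic genes (37.5%) and for 0 of 14 mitochondrial genes, against 1.08% of the 27305 gene symbols in the table and 0.617% of the 8916 tested genes with a window. Those 8916 genes were matched by identical symbol. The 6 cytosolic carriers do not count toward that share, since their windows bear newer symbols. The looser TGATGNAA, which contains the core, was present for 7 of the 16 cytosolic genes and for 1 mitochondrial gene, against 4.46% of gene symbols and 2.36% of tested genes. Per window, 0.866% of all 35116 windows held the core and 3.62% the looser element. In CARS, IARS, MARS, NARS and TARS the core lay within 22 bases of the gene's start, and in AARS it lay further upstream. WARS and EPRS, which are among the members that changed most, had no match in these windows. A match describes the letters only and does not show that a protein is bound.

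**Figure D1:**
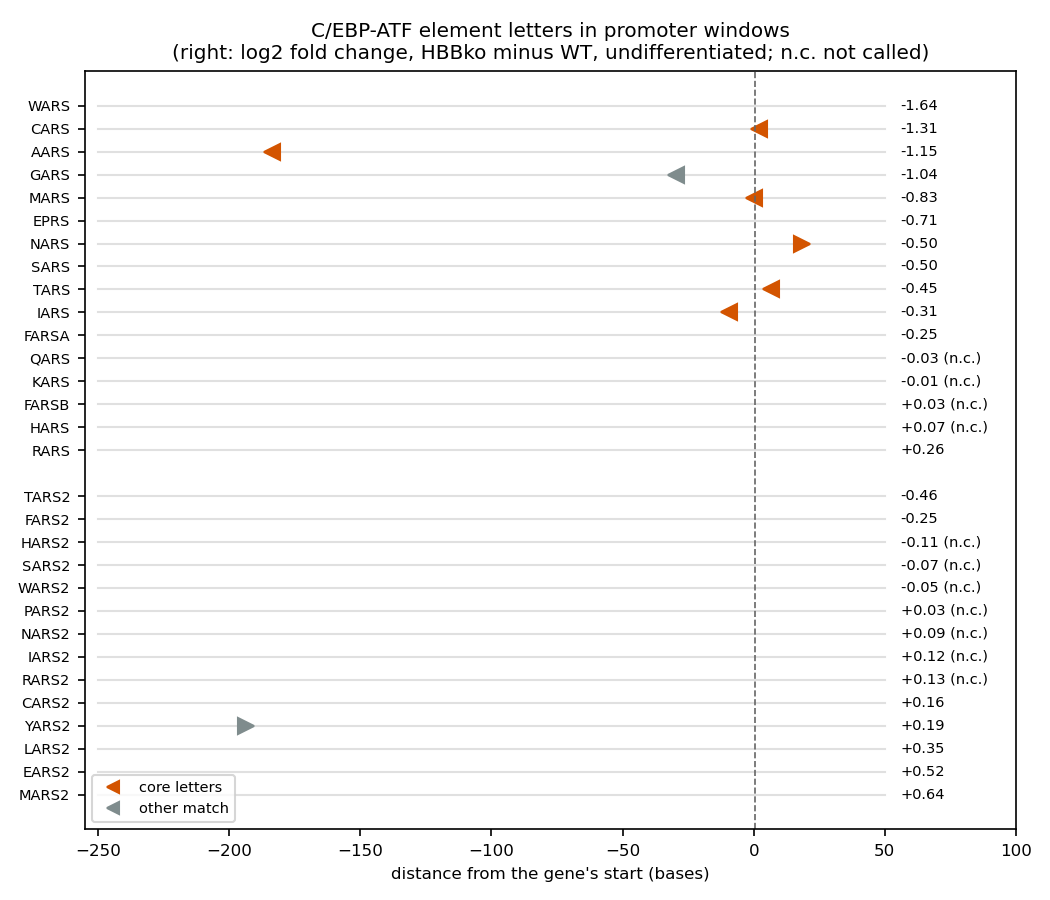
Position of the C/EBP-ATF element in the promoter windows of the 30 matched members, in bases from the gene's start (dashed line); arrowheads point along the element, orange for the core and grey for the other matches. Cytosolic genes fill the upper rows and mitochondrial genes the lower rows, and the number at the right is the HBBko against WT log2 fold change in undifferentiated cells, with n.c. where it was not called; all 6 carriers of the core lie between -1.31 and -0.31.

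The knockout was checked first. HBB, encoding beta-globin, had 4598, 4843 and 4983 scaled TPM in undifferentiated HBBko libraries, against 12517, 12454 and 22376 in WT. At 5 d it had 69004, 70764 and 72650 in HBBko libraries, against 431427, 427628 and 458719 in WT. The HBB level was thus lower in each HBBko library than in any WT library of the same stage, with remaining signal in HBBko. All 9 erythroid markers examined reached 1 scaled TPM in every group, whereas the summed level of the 5 lymphoid markers stayed at or below 0.461 in every library and that of the 5 myeloid markers at or below 1.24. The 4 megakaryocyte markers summed to 1.40 to 1.86 in undifferentiated HBBko libraries, against 3.83 to 4.32 in undifferentiated WT libraries, without overlap, and PF4 and PPBP were listed at 0 in every library. Markers of mast cells, basophils and eosinophils summed to 912.7 to 1046 in undifferentiated HBBko libraries, against 581.6 to 787.9 in undifferentiated WT libraries. The part of these marker levels in the results below was not tested. Globins took 38.7% to 39.9% of the HBBko signal at 5 d, against 50.5% to 52.1% of the WT signal. Library sums of scaled TPM were 783213 to 1508342. The undifferentiated WT libraries were less alike than those of the other groups (correlation across genes 0.987 to 0.993 within that group and at least 0.995 within each other group). Replicate 3 of undifferentiated WT had a globin share of 3.84%, against 2.36% and 2.29% in the other 2 libraries of its group. Several counts of called members, the largest cytosolic falls, the pair differences and the summed ratios are also given without it. Other results that use that group are given only with it. They include ATF4, the gene lists, single interactions and the counts by structural class, complex and promoter.

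In undifferentiated cells, the cytosolic synthetases were mostly lower in HBBko cells and the mitochondrial ones were not. Of the 20 cytosolic members, 13 fell, 1 rose and 6 were not called, with a median log2 fold change of -0.38 (limma on log2(scaled TPM + 1), called at an adjusted p under 0.05). Of the 16 mitochondrial members, 5 rose, 2 fell and 9 were not called, with a median of 0.06. Over all tested genes 22.3% were called lower and 20.9% higher, and the median was -0.01. All 13 cytosolic members that fell had each HBBko library below each WT library, which held for 23.4% of tested genes. The 4 largest falls exceeded 2-fold, a size that 1.06% of tested genes reached in that direction.

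WARS, the tryptophanyl-tRNA synthetase (chr14:100333788-100376805, minus strand, GENCODE v29 on GRCh38), had 72.9, 73.8 and 72.8 scaled TPM in undifferentiated HBBko libraries, against 185, 202 and 328 in WT. The groups did not overlap, and the spread lay almost wholly in the WT libraries. The log2 fold change was -1.64 ± 0.14 (SE, adjusted p 2.5e-07), a level in HBBko of 0.321 times that in WT on the log2(scaled TPM + 1) scale. CARS, the cysteinyl-tRNA synthetase (chr11:3000922-3057613, minus strand), had 33.6, 32.1 and 33.6 scaled TPM in HBBko, against 75.3, 75.6 and 103.6 in WT. Its log2 fold change was -1.31 ± 0.10 (adjusted p 8.9e-08). The groups did not overlap here either.

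AARS, which charges alanine (chr16:70252295-70289543, minus strand), had 77.7, 75.0 and 79.5 scaled TPM in HBBko libraries, against 150.6, 152 and 224 in WT (-1.15 ± 0.11, adjusted p 7.2e-07). GARS, the glycyl enzyme of both compartments (chr7:30594681-30634033, plus strand), had 137, 125 and 144 in HBBko, against 243, 257 and 349 in WT, a change of -1.04 ± 0.10 (adjusted p 9.6e-07). In both genes the 3 HBBko libraries lay close together and WT replicate 3 was the highest of the 6. MARS, which charges methionine on both initiator and elongator transfer RNAs (chr12:57475445-57517569, plus strand), had 116, 110.5 and 123 in HBBko, against 192, 182 and 258 in WT. Its change was -0.83 ± 0.09 (adjusted p 2.8e-06), again with no overlap between the lines.

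EPRS, a single protein that carries both the glutamyl and the prolyl enzyme (chr1:219968601-220046658, minus strand), had 69.3, 76.7 and 67.7 scaled TPM in HBBko, against 98.3, 130.5 and 124 in WT (log2 fold change -0.71 ± 0.08, adjusted p 3.7e-06). YARS, the tyrosyl enzyme (chr1:32775237-32818153, minus strand), had 117, 120.0 and 124 in HBBko, against 162, 175 and 205 in WT (-0.58 ± 0.06, adjusted p 3.6e-06). NARS, the asparaginyl enzyme (chr18:57600656-57622213, minus strand), had 184, 192 and 172 in HBBko, against 255, 266 and 255 in WT (-0.50 ± 0.06, adjusted p 3.9e-06). For NARS the WT libraries were alike, and replicate 3 was not the highest. The other cytosolic members that fell were SARS (serine), TARS (threonine), IARS (isoleucine), FARSA (alpha subunit of the phenylalanyl enzyme) and LARS (leucine), with log2 fold changes between -0.50 for SARS and -0.24 for LARS.

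Without WT replicate 3 the same count of 13 cytosolic members fell, and WARS was then at -1.39, CARS at -1.16, AARS at -0.96 and GARS at -0.88. The 6 members that were not called were DARS (aspartate), FARSB (beta subunit of the phenylalanyl enzyme), HARS (histidine), KARS (lysine), QARS (glutamine) and VARS (valine), with log2 fold changes between -0.06 for DARS and 0.10 for VARS. QARS, the most abundant member in undifferentiated HBBko and WT cells, had a mean of 280.0 ± 7.34 scaled TPM over HBBko libraries and of 287 ± 18.2 over WT libraries (SD, n = 3 each). RARS, the arginyl enzyme (chr5:168486445-168519299, plus strand), went the other way, with 45.7, 49.9 and 46.1 in HBBko, against 37.7, 43.7 and 36.3 in WT. Its log2 fold change was 0.26 ± 0.07 (adjusted p 0.0077, but 0.058 when limma was fitted to the 6 undifferentiated libraries alone), and the lines did not overlap (every HBBko library above every WT library, as for 22.8% of tested genes), though the lowest HBBko library lay close to the highest WT library.

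**Figure D2:**
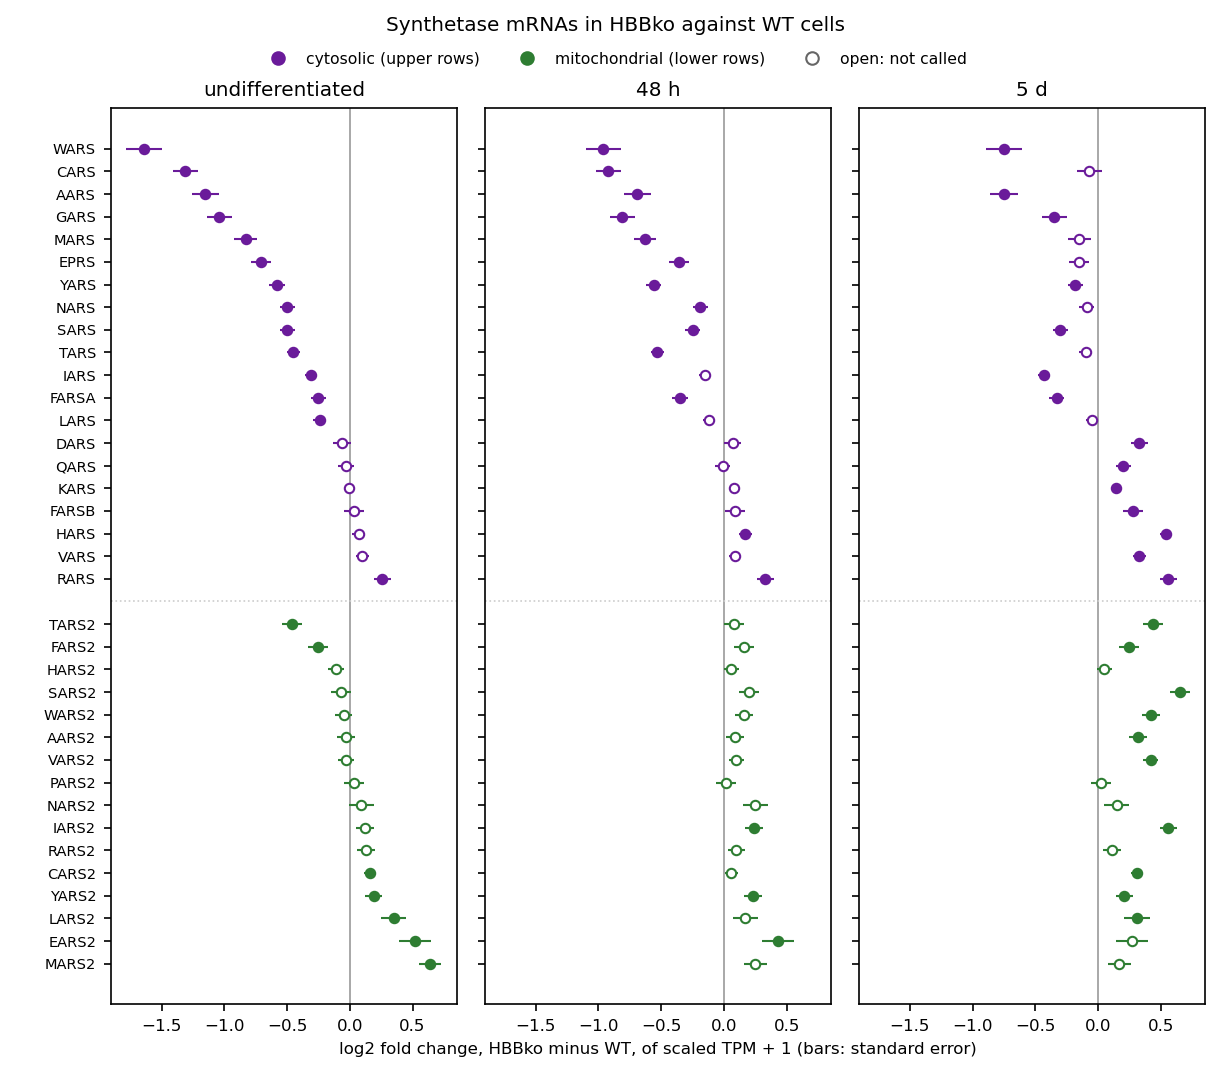
HBBko minus WT log2 fold change (with SE) of each of the 36 members in undifferentiated cells, at 48 h and at 5 d; purple marks cytosolic and green mitochondrial members, and open symbols were not called. The 13 cytosolic members called lower in undifferentiated cells, from WARS at -1.64 to LARS at -0.24, stand left of 0, and at 5 d all 16 mitochondrial members stand at or right of 0.02.

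The members that fell came from both structural classes and from inside and outside the multisynthetase complex. Synthetases fall into 2 unrelated active-site classes. Of the cytosolic members, 6 of 9 of class I and 6 of 10 of class II fell; EPRS, which fell, holds both. Of the 8 members that assemble into the multisynthetase complex (EPRS, IARS, LARS, MARS, QARS, RARS, KARS and DARS), 4 fell and 1 rose, with a median log2 fold change of -0.15. Of the 12 outside it, 9 fell and 0 rose, with a median of -0.50. These are counts without a test of the difference. The 3 scaffold proteins of the complex (AIMP1, AIMP2 and EEF1E1) had 2 members called higher and 0 called lower.

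By promoter, in undifferentiated cells all 6 carriers of the core element printed above fell, with a median of -0.67. They are AARS, CARS, IARS, MARS, NARS and TARS. Of the 10 matched cytosolic members without the core 5 fell, with a median of -0.14, and these 5 include WARS, EPRS and GARS. Tested genes at large were matched to windows by identical symbol, which left these 6 carriers out, since their windows bear newer symbols. Among the 55 tested genes matched in that way with the core in the window, 22 (40%) were called lower and 6 (10.9%) higher. Of the 8861 genes matched in that way without it, 22.7% were called lower and 22.3% higher. At 48 h, 5 of the 6 carriers fell (median -0.58), and of the 10 members without the core 5 fell and 2 rose (median -0.13). At 5 d only 2 of the 6 carriers fell (median -0.12), against 24.8% of all tested genes. Of the 10 without the core, 4 fell and 5 rose at 5 d (median 0.00).

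Among the mitochondrial members in undifferentiated cells, MARS2, the methionyl enzyme (chr2:197705369-197708387, plus strand), had 14.6, 14.9 and 13.2 scaled TPM in HBBko, against 9.60, 9.61 and 7.33 in WT. Its log2 fold change was 0.64 ± 0.09 (adjusted p 6.2e-05), opposite in sign to its cytosolic counterpart MARS. EARS2, the glutamyl enzyme (chr16:23522014-23557731, minus strand), had 16.5, 18.2 and 18.5 in HBBko, against 14.3, 12.3 and 9.85 in WT (0.52 ± 0.13, adjusted p 0.0032). LARS2, the leucyl enzyme (chr3:45388506-45549421, plus strand), had 12.5, 11.9 and 14.4 in HBBko, against 9.92, 11.1 and 8.86 in WT (0.35 ± 0.10, adjusted p 0.0084). In these 3 genes WT replicate 3 was the lowest library. CARS2 (0.16) and YARS2 (0.19) also rose. The YARS2 call was lost without any 1 of the libraries except WT replicate 2 (adjusted p 0.067 to 0.091), the CARS2 call without HBBko replicate 2 (0.063) or 3 (0.053), and the LARS2 call without HBBko replicate 3 (0.05). Leaving out HBBko replicate 2, HBBko replicate 3 or WT replicate 3 in turn gave 3, 2 and 4 mitochondrial members called higher.

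2 mitochondrial members fell. TARS2, the threonyl enzyme (chr1:150487364-150507609, plus strand), had 18.5, 20.1 and 19.5 scaled TPM in HBBko, against 27.9, 25.3 and 27.9 in WT (-0.46 ± 0.08, adjusted p 1.7e-04). FARS2, the phenylalanyl enzyme (chr6:5261044-5829192, plus strand), had 18.1, 18.3 and 20.0 in HBBko, against 23.2, 22.3 and 21.9 in WT (-0.25 ± 0.08, adjusted p 0.015). The lines did not overlap for either gene, and without HBBko replicate 1 the FARS2 call was lost (adjusted p 0.06). The 9 mitochondrial members that were not called ran from -0.11 for HARS2 to 0.13 for RARS2 and included AARS2, IARS2, NARS2, PARS2, SARS2, VARS2 and WARS2.

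**Figure D3:**
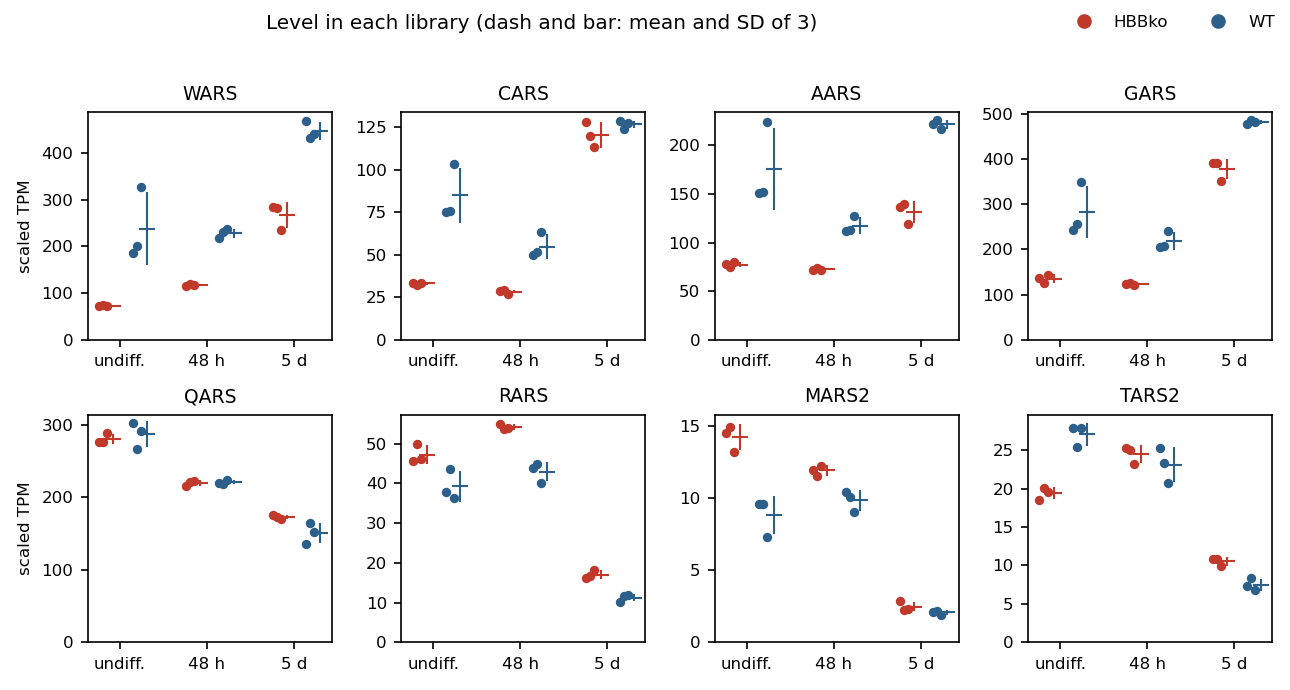
Scaled TPM of 8 members in each of the 18 libraries (points), with the mean and SD of 3 libraries (dash and bar), HBBko in red and WT in blue at each stage; each vertical axis starts at 0. WARS, AARS and GARS lie lower in HBBko at each stage. CARS lies lower in HBBko at the first 2 stages and reaches 113 to 128 in HBBko and 124 to 128 in WT at 5 d. QARS overlaps at the first 2 stages, and RARS lies higher in HBBko throughout. TARS2 lies lower in undifferentiated HBBko cells and higher at 5 d.

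At 48 h, 11 cytosolic members fell, 2 rose and 7 were not called (median -0.22), whereas 3 mitochondrial members rose, 0 fell and 13 were not called (median 0.16); all 16 had a log2 fold change above 0. Over all tested genes 9.21% were called lower and 9.52% higher (median 0.02). Replicate 3 of WT at 48 h had a globin share of 24.7%, against 20.2% and 20.3% in the other WT libraries of that stage. Without it, 10 cytosolic members fell and 1 rose, and 0 mitochondrial members rose or fell. WARS had 116, 119 and 116 scaled TPM in HBBko, against 218, 229.7 and 236 in WT (-0.96 ± 0.14, adjusted p 1.7e-04), and here the WT libraries were close together. CARS had 28.6, 29.2 and 27.1 in HBBko, against 49.5, 51.7 and 63.2 in WT (-0.92 ± 0.10, adjusted p 9.0e-06). GARS, AARS, MARS, YARS and TARS fell by 0.81, 0.69, 0.63, 0.56 and 0.53 on the log2 scale, and EPRS, FARSA, SARS and NARS by 0.36, 0.35, 0.25 and 0.19. The NARS call at 48 h was lost without HBBko replicate 1 (adjusted p 0.12) or 3 (0.071), or without WT replicate 2 (0.056) or 3 (0.11).

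The members called against that direction at 48 h were RARS and HARS. RARS had 55.0, 53.8 and 53.8 scaled TPM in HBBko, against 43.9, 44.8 and 40.2 in WT (0.33 ± 0.07, adjusted p 0.0048). HARS, the histidyl enzyme, had 78.3, 78.8 and 80.9 in HBBko, against 70.5, 70.8 and 70.1 in WT (0.17 ± 0.05, adjusted p 0.022), a call that ended when any 1 of the 6 libraries of that stage was left out (adjusted p 0.052 to 0.088). EARS2 (0.43), IARS2 (0.24) and YARS2 (0.23) were the mitochondrial members called higher. In addition, 12 of the 16 mitochondrial members had every HBBko library above every WT library, an order seen in 29.5% of tested genes, and 13 cytosolic members had every HBBko library below, an order seen in 22.4%. Leaving out 1 library moved the count of mitochondrial members called higher to between 0 and 3, with 0 without HBBko replicate 3 or WT replicate 3 and 1 without HBBko replicate 1 or 2.

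At 5 d the cytosolic members were split, with 7 lower, 7 higher and 6 not called (median -0.10), and the mitochondrial members had 10 higher, 0 lower and 6 not called (median 0.29), again with all 16 log2 fold changes above 0. Over all tested genes 24.8% were called lower and 26.5% higher (median 0.02). WARS still fell, with 284, 282 and 234 scaled TPM in HBBko, against 468, 433 and 441 in WT (-0.75 ± 0.14, adjusted p 2.6e-04). AARS had 137, 139 and 119 in HBBko, against 222, 226 and 217 in WT (-0.75 ± 0.11, adjusted p 2.3e-05), and IARS, GARS, FARSA, SARS and YARS fell by 0.43, 0.35, 0.33, 0.30 and 0.18. For 10 cytosolic members every HBBko library lay below every WT library, an order seen in 28.7% of tested genes. CARS, by contrast, overlapped between the lines, with 128, 119.7 and 113 in HBBko, against 128, 124 and 127 in WT (-0.07 ± 0.10, adjusted p 0.57).

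The 7 cytosolic members higher at 5 d included the 6 that were not called in undifferentiated cells. RARS had 16.2, 16.7 and 18.3 scaled TPM in HBBko, against 10.2, 11.7 and 11.9 in WT (0.56 ± 0.07, adjusted p 7.7e-06). HARS had 55.5, 54.1 and 58.5 in HBBko, against 38.6, 39.5 and 36.5 in WT (0.54 ± 0.05, adjusted p 1.2e-07). VARS (0.33), DARS (0.33), FARSB (0.28), QARS (0.20) and KARS (0.14) rose as well. Of these, HARS and RARS did not overlap between the lines at this stage, nor did VARS, DARS, QARS and KARS, and an order with every HBBko library above every WT library was seen in 31.1% of tested genes.

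Mitochondrial members at 5 d rose most for SARS2, the seryl enzyme (0.65 ± 0.08, adjusted p 3.1e-06), IARS2, the isoleucyl enzyme (0.56 ± 0.07, adjusted p 6.7e-06), and TARS2. SARS2 had 17.7, 17.2 and 17.9 scaled TPM in HBBko, against 10.2, 11.7 and 10.8 in WT. TARS2 had 10.8, 10.9 and 9.91 in HBBko, against 7.29, 8.35 and 6.85 in WT (0.44 ± 0.08, adjusted p 1.5e-04), the opposite order to undifferentiated cells. MARS2 was at 2.86, 2.27 and 2.33 in HBBko, against 2.13, 2.21 and 1.91 in WT, and its change of 0.17 ± 0.09 was not called (adjusted p 0.14). How the cytosolic members split at 5 d depended on the scaling: with all libraries rescaled to equal sums, where the median of all genes moved to 0.27, 14 cytosolic members were called higher and 2 lower.

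HARS and HARS2 lie head to head on chromosome 5. Between their RefSeq starts lie 84 bases (chr5:140691371-140691454, GRCh38.p14). This stretch, shown on the plus strand, which is that of HARS2, is printed in full because the 2 genes face each other across it.
HARS/HARS2: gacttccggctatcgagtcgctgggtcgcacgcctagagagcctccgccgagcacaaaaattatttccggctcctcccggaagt
HARS rose at 5 d by 0.54, whereas HARS2 had 6.72, 6.76 and 7.61 scaled TPM in HBBko, against 6.73, 6.79 and 6.71 in WT, a change of 0.05 ± 0.06 (adjusted p 0.51). The ratio of HARS to HARS2 within a library was higher in every HBBko library than in every WT library at 5 d. In GENCODE v29 the 2 genes also share 437 exonic bases on opposite strands. The labels name a library kit that does not mark strand, so reads from such shared bases cannot be assigned by strand. The same holds for MARS, which shares 519 exonic bases with ARHGAP9 and 355 with DDIT3, a stress-response transcription factor gene, both on the other strand. It also holds for WARS, which shares 385 with the antisense gene AL157871.4, and for CARS, which shares 205 with CARS-AS1. Further members share exonic bases with genes on the other strand, among them YARS (396 with S100PBP), EARS2 (370 with UBFD1) and SARS2 (349 with MRPS12). VARS2 shares 1858 exonic bases with GTF2H4 and SARS2 shares 1492 with AC011455.2, both on the same strand, so that their values are uncertain.

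Set side by side by amino acid, the cytosolic gene changed below its mitochondrial counterpart in 12 of 17 pairs in undifferentiated cells, in 15 at 48 h and in 14 at 5 d; EPRS and FARS2 each stand in 2 pairs. The median difference of log2 fold changes (cytosolic minus mitochondrial) was -0.59 in undifferentiated cells, -0.45 at 48 h and -0.38 at 5 d. In undifferentiated cells it was -1.59 for WARS and WARS2, -1.48 for CARS and CARS2, -1.47 for MARS and MARS2, -1.23 for EPRS and EARS2, and -1.12 for AARS and AARS2. The pairs RARS with RARS2 (0.14, 0.23 and 0.45 at the 3 stages) and HARS with HARS2 (0.17, 0.11 and 0.49) ran the other way at every stage. The ratio within a library of a cytosolic to its mitochondrial gene was lower in every HBBko library than in every WT library for 11, 13 and 11 pairs at the 3 stages. No count was made over other pairs of genes, so all these pair counts stand without a background share. For the level of single tested genes that order held for 23.4%, 22.4% and 28.7%. Without WT replicate 3 the median difference in undifferentiated cells was -0.55, and the ratio was lower in every HBBko library for 11 pairs.

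Summed over each library, the cytosolic members came to 6.58 ± 0.12 times the mitochondrial members in undifferentiated HBBko libraries, against 9.48 ± 0.99 times in WT. At 48 h the ratio was 6.68 ± 0.20 in HBBko and 9.28 ± 0.65 in WT, and at 5 d it was 22.6 ± 0.89 in HBBko and 34.6 ± 1.96 in WT (SD, n = 3 each). Without WT replicate 3 the undifferentiated WT ratios were 8.75 and 9.08. The libraries of the lines did not overlap at any stage, and a ratio within a library does not depend on how libraries were scaled to each other. In these bulk samples, fewer cells of a kind and less RNA per cell cannot be told apart.

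Over 5 d of differentiation the cytosolic and the mitochondrial synthetases parted in both lines. All 16 mitochondrial members fell in HBBko cells, with a median log2 change (5 d minus undifferentiated) of -1.44, and all 16 fell in WT cells, with a median of -1.66. By contrast 10 of 20 cytosolic members rose and 9 fell in HBBko cells (median 0.05), and 9 rose and 10 fell in WT cells (median -0.16). Over all tested genes 54.4% were called lower and 31.4% higher in HBBko (median -0.33), and 55.8% lower and 30.0% higher in WT (median -0.36). The fall exceeded 2-fold for 11 mitochondrial members in HBBko cells and for 14 in WT cells, against 27.6% and 28.1% of tested genes. In WT cells other lists of translation genes were mostly called lower in both compartments, with lower medians on the mitochondrial side. Of 9 cytosolic elongation and termination factors, 1 rose and 7 fell (median -0.43). Of 10 mitochondrial translation factors, 1 rose and 7 fell (median -1.11). Of 14 genes for charging and modifying mitochondrial transfer RNAs, 0 rose and 13 fell (median -1.21). Of 19 genes that process, modify or export cytosolic transfer RNAs, 3 rose and 16 fell (median -0.89). Of 78 mitochondrial ribosomal protein genes, 0 rose and 74 fell (median -1.18).

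IARS2 fell most on the log2(scaled TPM + 1) scale, with a change of -2.78 ± 0.07 in HBBko and of -3.23 ± 0.07 in WT. It had 5.96, 6.12 and 6.64 scaled TPM at 5 d, against 47.5, 50.5 and 48.3 in undifferentiated HBBko cells, and 3.77, 4.06 and 3.88 at 5 d, against 47.3, 49.0 and 39.1 in undifferentiated WT cells. That scale understates the change of low genes such as NARS2, whose HBBko mean was 12.3 in undifferentiated cells and 1.56 at 5 d. The ranking in HBBko thus depends on the scale. RARS2 fell least (-0.45 in HBBko and -0.44 in WT). PARS2, the prolyl enzyme, was the least abundant member and lay below 1 scaled TPM in all 6 libraries at 5 d.

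Cytosolic members that rose over 5 d in HBBko cells by more than 2-fold were WARS (1.85 ± 0.14), CARS (1.83 ± 0.10), GARS (1.47 ± 0.10), MARS (1.08 ± 0.09) and EPRS (1.06 ± 0.08), a rise that 12.1% of tested genes reached. In WT cells WARS rose by 0.95, CARS by 0.59, GARS by 0.79, MARS by 0.40 and EPRS by 0.49. TARS, AARS, YARS and IARS rose in both lines too. At the other end, VARS changed by -1.88 in HBBko and -2.10 in WT, DARS by -1.57 in HBBko and -1.95 in WT, RARS by -1.42 in HBBko and -1.71 in WT, and FARSA by -1.37 in HBBko and -1.29 in WT. The carriers of the core element had 6 of 6 members called higher over 5 d in HBBko and 5 of 6 in WT, with NARS not called, whereas the 10 matched cytosolic members without it had 3 called higher and 7 lower in each line. With rescaling to equal sums, which moved the median of all genes to -0.80 in HBBko and -1.06 in WT, HBBko had 7 cytosolic members higher and 12 lower, and WT had 0 higher and 18 lower. All 16 mitochondrial members fell under that scaling in both lines. With quantile normalization 13 fell in HBBko and 15 in WT, and with median-of-ratios scaling 15 fell in each line.

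**Figure D4:**
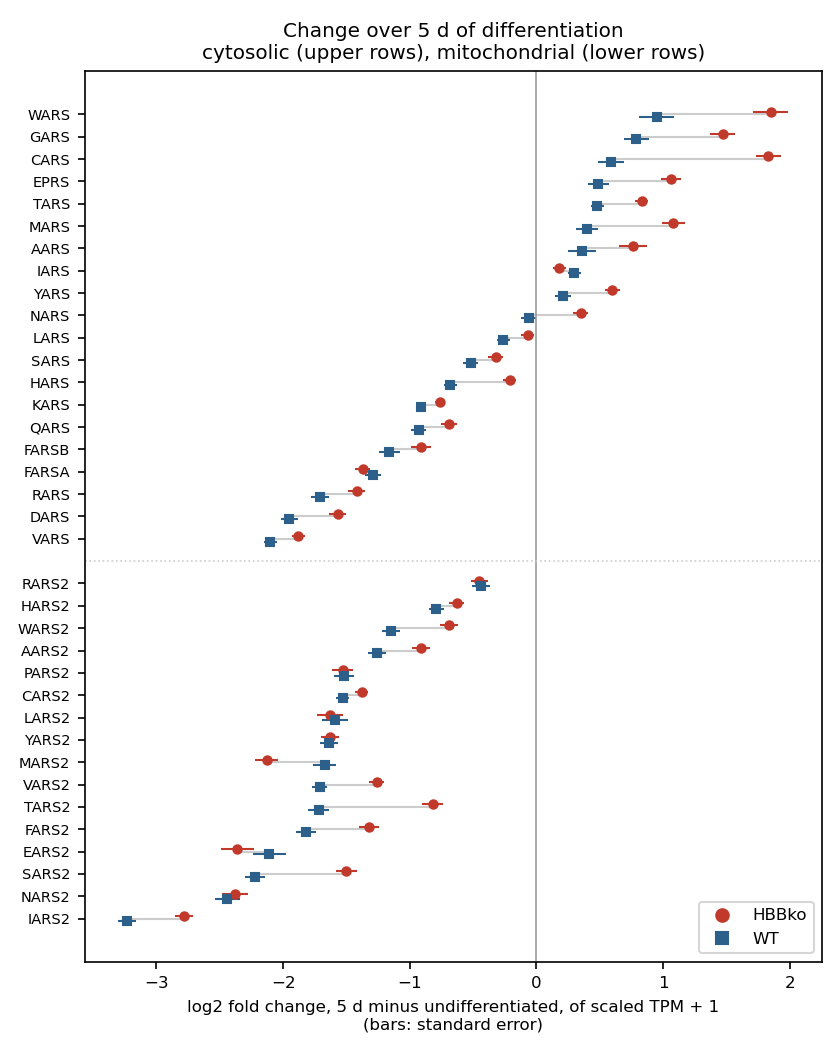
Log2 change from undifferentiated cells to 5 d (with SE) for each member, HBBko as red circles and WT as blue squares, joined by a grey line. All mitochondrial members (lower rows) lie left of 0, cytosolic members (upper rows) run from WARS (1.85 in HBBko, 0.95 in WT) to VARS (-1.88 in HBBko, -2.10 in WT), and the HBBko symbol lies right of the WT symbol for 18 of 20 cytosolic members.

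The change over 5 d differed between the lines for most cytosolic members. In the interaction test, the difference of the 5 d change between HBBko and WT, 16 of 20 cytosolic members were called higher in HBBko and 0 lower (median 0.37, with FARSA at -0.08 and IARS at -0.12 below 0, unadjusted p 0.38 and 0.14), against 23.5% and 21.5% of tested genes (median 0.02). Without WT 5 d replicate 1 that count was 10, and without undifferentiated WT replicate 3 it was 15. In WT alone, the counts over 5 d were the same without that undifferentiated replicate (9 cytosolic members higher and 10 lower, 16 mitochondrial lower). CARS had the largest interaction (1.24 ± 0.14, adjusted p 4.9e-06), then TARS2 (0.90 ± 0.11, adjusted p 7.8e-06) and WARS (0.89 ± 0.20, adjusted p 0.0015). Of the mitochondrial members 7 were called higher and 1, MARS2, lower (-0.46 ± 0.13, adjusted p 0.01). Since these differences share the undifferentiated libraries with the comparison between the lines, a low HBBko or high WT level at the start enters both.

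By 48 h no member had changed 2-fold in either line. In HBBko cells 8 cytosolic members rose and 7 fell, and in WT cells 2 rose and 10 fell. Of the mitochondrial members 3 rose and 6 fell in HBBko, and 2 rose and 10 fell in WT. These counts depended on the scaling and on single libraries, so that they give no contrast between the lines. Of the cytosolic members in WT, 8 rose with globins removed or with median-of-ratios scaling, 6 with library weights or without undifferentiated replicate 2, 4 without undifferentiated replicate 3 and 0 with equal sums. Of the mitochondrial members in WT, 5 fell with globins removed, 4 with median-of-ratios scaling, 3 with quantile normalization, 6 with only the compared groups fitted and 7 without 48 h replicate 3. In HBBko, 6 mitochondrial members rose and 3 fell with quantile normalization, and 11 cytosolic members fell with only the compared groups fitted. The background in HBBko was 25.1% of tested genes higher and 40.1% lower, and in WT it was 23.5% higher and 41.4% lower. SARS fell most in both lines (-0.56 ± 0.06 in HBBko and -0.81 ± 0.06 in WT). The interaction at 48 h was called for 3 cytosolic members, WARS (0.68), EPRS (0.35) and NARS (0.31), and for the mitochondrial TARS2 (0.54) and FARS2 (0.41), all higher in HBBko, against 7.67% of tested genes called higher and 5.51% lower. From 48 h to 5 d, 7 cytosolic members had an interaction called higher and 1, IARS, lower, and 5 mitochondrial members were called higher, against 11.5% of tested genes higher and 13.1% lower.

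ATF4 itself had 303, 272 and 302 scaled TPM in undifferentiated HBBko libraries, against 514, 516 and 704 in WT (log2 fold change -0.97 ± 0.09, adjusted p 9.7e-07). At 48 h its change was -0.56 ± 0.09 and at 5 d it was 0.00 ± 0.09 (adjusted p 0.98), with 792, 688 and 712 in HBBko and 742, 701 and 753 in WT. Of 35 listed ATF4 and amino acid response genes other than synthetases 33 were tested, and of these 30 fell and 1 rose in undifferentiated HBBko cells, 25 fell and 0 rose at 48 h, and 27 fell and 0 rose at 5 d, with medians of -1.09, -0.86 and -0.82. CHAC1, which breaks down glutathione, was at -3.60 in undifferentiated cells, ADM2, a secreted peptide, at -2.45, and SESN2, a leucine sensor, at -2.34. This list was drawn up with earlier results of these cells known, so its direction is no independent evidence.

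Other genes of translation were counted in the same way, against 20.9% of all tested genes higher and 22.3% lower in undifferentiated cells, 9.52% and 9.21% at 48 h, and 26.5% and 24.8% at 5 d. In lists this short, 3 of 9 or 7 of 19 is near that background. Of 9 cytosolic elongation and termination factors, 3 rose and 0 fell in undifferentiated HBBko cells, 0 were called at 48 h (log2 fold changes of -0.14 to 0.32), and 4 rose and 1, GSPT1 (a termination factor, -0.52), fell at 5 d. Of 19 genes that process, modify or export cytosolic transfer RNAs, 10 rose and 3 fell in undifferentiated cells, 5 rose and 1 fell at 48 h, and 7 rose and 3 fell at 5 d. XPOT, the exportin of transfer RNA, was the one that fell at 48 h (-0.35 ± 0.06) and it fell at 5 d too (-0.78 ± 0.06, adjusted p 2.9e-08). POP1, a subunit of the nuclease that trims precursor transfer RNAs, rose by 0.72 in undifferentiated cells.

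On the mitochondrial side, 9 of 14 genes for charging and modifying mitochondrial transfer RNAs rose and 1 fell in undifferentiated HBBko cells, 5 rose and 0 fell at 48 h, and 9 rose and 1 fell at 5 d, read against the same background shares. ELAC2, which trims the other end of precursor transfer RNAs, was at 0.52 in undifferentiated cells, and MTO1, a transfer RNA modification enzyme, at -0.51. TRMT10C, a subunit of the mitochondrial enzyme that trims precursor transfer RNAs, rose at each stage (0.46, 0.32 and 0.57), and so did HSD17B10, which acts with it (0.37, 0.26 and 0.56). Of 78 mitochondrial ribosomal protein genes, 23 rose and 12 fell in undifferentiated cells, 20 rose and 0 fell at 48 h, and 40 rose and 9 fell at 5 d. Among them MRPS17 was at 0.55 and MRPL1 at -0.50 in undifferentiated cells, and MRPL33 at 0.80 and MRPS6 at -0.66 at 5 d. Of 10 mitochondrial translation factors, 3 rose and 2 fell, then 3 rose and 0 fell, and then 6 rose and 1 fell, counts near the background in undifferentiated cells. The initiation factors MTIF2 (-0.30) and MTIF3 (-0.29) fell in undifferentiated cells, and at 5 d GFM2, a ribosome recycling factor, was at 0.72 and the elongation factor TUFM at 0.41. Of 5 genes of the network of the transcription factor MYC (MYC, MAX, MXI1, MXD4 and MLX), 3 rose and 1, MXI1 (-0.57), fell in undifferentiated cells, 0 rose and 1 fell at 48 h, and 2 rose and 1 fell at 5 d.

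In the authors' deposited tables of HBBko against WT, the log2 fold change of all 36 members had the same sign as here at each stage. At a q-value under 0.05, the authors' deposited tables called 12 cytosolic members lower and 1 higher in undifferentiated cells, 13 lower and 2 higher at 48 h, and 10 lower and 7 higher at 5 d. Of the mitochondrial members, the authors' deposited tables called 2 lower and 3 higher in undifferentiated cells, 0 lower and 7 higher at 48 h, and 0 lower and 9 higher at 5 d. The share of all genes with such a q-value was not computed, so these counts cannot be set against a background.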

How the data were processed

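RNA from 18 libraries (6 groups of 3) was analysed. The deposited signal values are TPM per gene that the authors scaled between libraries; kallisto, sleuth and hg38 are named in the submitters' processing notes, without roles or versions. Depth is unknown, since no counts were used, and counting error cannot be stated. The authors' deposited tables of log2 fold changes, p-values and q-values were used only where named. Values were analysed as log2(scaled TPM + 1) with limma 3.58.1 (moderated statistics with a trend) in R 4.3.3, over 12005 genes with at least 1 scaled TPM in 3 libraries, on 6 group means with 12 residual degrees of freedom. There were 10 comparisons, with two-sided p-values adjusted over all tested genes by Benjamini and Hochberg, and calls at 0.05. Fold changes on this scale understate the change of low genes. An exact permutation test of 3 against 3 libraries cannot go below 0.1 and was not used. Gene positions are from GENCODE v29 and promoter windows from RefSeq. The fit was tested on simulated data.

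The members and lists were chosen with earlier results of these data known. All members are named; values in each library are given for the 8 cytosolic and 4 mitochondrial members with the largest called changes between undifferentiated HBBko and WT, for members called against most of their compartment and for the 3 largest called interactions. Outside the members, HBB, ATF4 and up to 3 of the largest called changes of each list are named. Library values of SARS2, IARS2 and HARS2 were added after they were seen, as were the names of genes that share exons with members. Same-numbered libraries of HBBko and WT deviated together in undifferentiated cells (r of 0.17, 0.12 and 0.15 across genes) and at 5 d (0.13, 0.18 and 0.13); this pairing comes from the data and is not in the labels. Alternatives covered the pseudocount, the filter, the scaling, library weights, the groups fitted, a replicate block and leaving out libraries.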

Additional observations from a re-analysis of the deposited data

Results flagged for a closer look

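The change over time of 24 members differed between HBBko and WT from undifferentiated cells to 5 d, by limma's test of the difference itself, with adjusted p-values under 0.05. In that test 23.5% of all tested genes were called higher and 21.5% lower. On the log2 scale (HBBko minus WT) the cytosolic values were 1.24 for CARS, 0.89 for WARS, 0.69 for GARS, 0.68 for MARS, 0.56 for EPRS, 0.48 for HARS, 0.41 for NARS, 0.40 for AARS, 0.39 for DARS and for YARS, 0.35 for TARS, 0.30 for RARS, 0.23 for QARS and for VARS, 0.19 for LARS and 0.15 for KARS. The mitochondrial values were 0.90 for TARS2, 0.72 for SARS2, 0.49 for FARS2, 0.46 for WARS2, 0.45 for IARS2 and for VARS2, 0.35 for AARS2 and -0.46 for MARS2.

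From undifferentiated cells to 48 h the difference was called for WARS (0.68), TARS2 (0.54), FARS2 (0.41), EPRS (0.35) and NARS (0.31), against 7.67% of tested genes higher and 5.51% lower. From 48 h to 5 d the difference was called for CARS (0.85), MARS (0.49), GARS (0.46), SARS2 (0.45), TARS (0.43), HARS (0.37), YARS (0.37), TARS2 (0.36), IARS2 (0.32), VARS2 (0.32), CARS2 (0.25), VARS (0.23) and IARS (-0.28). In that interval 11.5% of tested genes were called higher and 13.1% lower. CARS was thus called over 5 d and in the later interval, whereas WARS was called over 5 d and in the earlier one. Intervals with a common stage share its libraries.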

How the results depend on the processing

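Counts of called members between the lines, over 5 d and in the 5 d interaction kept within 1.5 times of the reported ones except as follows, whereas the counts from undifferentiated cells to 48 h moved more often and are given with their alternatives above; alternatives for the counts called higher were added after the data were seen. With libraries rescaled to equal sums, 1 mitochondrial member was lower in undifferentiated cells, 13 were higher at 48 h, 5 cytosolic members were higher at 48 h, 2 were lower and 14 higher at 5 d, 18 were lower and 0 higher over 5 d in WT, and 0 mitochondrial members had a lower interaction. That scaling moved the median of all genes to 0.14 at 48 h, where 84.20% of calls were higher against 50.82% as reported, and at 5 d 86.01% against 51.70%. Fitting only the groups compared gave 0 cytosolic and 2 mitochondrial members higher in undifferentiated cells and 9 mitochondrial at 48 h; library weights gave 3 and 9 mitochondrial members. A pseudocount of 5 gave 5 at 48 h and 2 lower interactions, testing every gene above 0 gave 0 at 48 h, and removing globins gave 1. Leaving out replicate 3 of both undifferentiated and 48 h WT gave 3 higher in undifferentiated cells. Leaving out 1 library gave 13 to 13 cytosolic members lower, 1 to 2 mitochondrial lower and 2 to 6 higher in undifferentiated cells, 1 cytosolic and 0 to 3 mitochondrial higher at 48 h, and 10 to 16 cytosolic members with a higher interaction.

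Signs turned as follows. With equal sums KARS was at 0.03 and QARS, AARS2 and VARS2 at 0.01 in undifferentiated cells, LARS at 0.02 and QARS at 0.13 at 48 h, and CARS at 0.26, EPRS and MARS at 0.19, LARS at 0.29, NARS at 0.25, TARS at 0.23, SARS at 0.04 and YARS at 0.15 at 5 d; of these only SARS and YARS had been called. KARS was at 0.02 without globins or with library weights and at 0.01 with median-of-ratios scaling. Library weights gave QARS 0.00 and PARS2 -0.01 at 48 h. Quantile normalization gave CARS 0.01, LARS 0.03, NARS 0.02 and TARS 0.01 at 5 d. With 1 library left out, the range was -0.03 to 0.06 for FARSB, -0.03 to 0.01 for KARS, -0.08 to 0.01 for QARS, 0.00 to 0.05 for PARS2, -0.16 to 0.01 for SARS2, -0.06 to 0.00 for VARS2 and -0.10 to 0.01 for WARS2 in undifferentiated cells, -0.02 to 0.01 for QARS and -0.02 to 0.05 for PARS2 at 48 h, and 0.00 to 0.08 for HARS2 and -0.05 to 0.11 for PARS2 at 5 d. With replicate 3 of both undifferentiated and 48 h WT left out, undifferentiated KARS was at 0.01, PARS2 at 0.00 and SARS2 at 0.01, and at 48 h QARS was at 0.00 and PARS2 at -0.02. The cause was not tested. With a replicate block the 13 cytosolic members lower in undifferentiated cells and the 7 at 5 d were the same in number, and 17 had a higher interaction; at 48 h, where same-numbered libraries did not deviate together (r of -0.03, -0.01 and 0.02), the block gave 13 cytosolic members lower and 4 mitochondrial higher. Depth is unknown, so members near 1 scaled TPM, such as PARS2 at 5 d, are the least certain.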
